A study of Homo sapiens with 12 samples.

Results

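The mRNAs of 10 genes that make, break down and regulate polyamines were measured in the polysomes of triple-negative breast cancer (TNBC) cells: ODC1, AMD1, SRM and SMS for synthesis, SAT1, SMOX and PAOX for catabolism, and OAZ1, OAZ2 and AZIN1 for control of ornithine decarboxylase. The genes were taken by their symbols. All 10 were among the 16538 genes, of 24559 symbols in the table, that passed the filter on low counts and were tested.

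Polyamines (putrescine, spermidine and spermine) are small positively charged molecules that bind RNA and ribosomes and are needed for growth. Ornithine decarboxylase makes putrescine from ornithine, and the synthases then add aminopropyl groups that come from decarboxylated S-adenosylmethionine. Polyamines are acetylated for export or oxidised back, and they limit their own level, since high polyamines raise the synthesis of antizyme, a protein that sends ornithine decarboxylase to the proteasome. Breast tumours and other growing tissues are known for high polyamine levels, and ODC1 is a textbook target of the transcription factor MYC.

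The study asked how TRMT112, an activating subunit of several methyltransferases of rRNA, tRNA and proteins, affects which mRNAs are translated. Lysates of 3 established human TNBC lines, MDA-MB-231, SUM159 and BT549, were run on sucrose gradients after cycloheximide treatment, and RNA from the pooled polysome fractions was sequenced in 12 libraries, 2 per group. In MDA-MB-231 and SUM159, cells labelled KD carried a GIPZ shRNA against TRMT112. Their controls are labelled EV (empty vector), while the methods describe a GIPZ non-silencing shRNA. In BT549, cells labelled OE carried a TRMT112 open reading frame in pReceiver-M02, and EV cells carried the empty form of that plasmid. The shRNA cells were selected with puromycin and the BT549 cells with G418, and whether each line was a clone or a pool is not stated. The cells of all 6 groups received no other treatment.

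Library totals lay between 22954226 and 27434677 expected counts, in which a read that fits several transcripts is divided among them. Values below are normalized counts, that is, counts per gene scaled by TMM to a common library size. A gene differed between the libraries of a group by a median of 0.08 to 0.10 on the log2 scale, which was more than sampling noise. The targeted gene followed the labels: TRMT112 had a mean of 4042 normalized counts in EV and 1723 in KD of MDA-MB-231, 6449 and 3804 in SUM159, and 3081 in EV and 4303 in OE of BT549. Of the markers checked, PGR (0 to 6.63 normalized counts over the groups) was at or near 0 and VIM was high (17136 to 47402). ERBB2 had 1412 to 3360 normalized counts. ESR1 was not among the symbols with counts, so no level can be given for it. The epithelial keratins KRT8 and KRT18 had between 4515 and 9774 normalized counts in MDA-MB-231 and SUM159 and at most 15.1 in BT549. The epithelial genes EPCAM (0 to 70.9) and KRT19 (0 to 16.0) were low in every group. The leukocyte gene PTPRC (0.94 to 9.94) and the endothelial gene PECAM1 (0.55 to 95.8) were low.

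Polyamine genes changed in all 3 comparisons, mostly by small amounts in the KD lines and by larger amounts in BT549 OE. Genes in general did likewise. Over all genes with an adjusted p under 0.05, the median absolute log2 fold change was 0.33 in MDA-MB-231 KD, 0.59 in SUM159 KD and 0.87 in BT549 OE. In MDA-MB-231, 8 of the 10 differed between KD and EV at an adjusted p under 0.05, where 37.7% of all tested genes did, and in SUM159 8 of 10 differed, where 60.1% did. Between OE and EV of BT549 8 of 10 differed, where 70.6% of all genes did. In each comparison some of these calls depended on the processing or on single libraries, as given for each gene below. In MDA-MB-231 KD 3 were higher and 5 lower (21.2% and 16.5% of all genes), in SUM159 KD 4 and 4 (28.6% and 31.4%), and in BT549 OE 6 and 2 (35.6% and 35%). The median log2 fold change of the 10 was -0.06 in MDA-MB-231, 0.17 in SUM159 and 0.55 in BT549, beside medians of 0.00, 0.00 and 0.02 over all genes tested. A log2 fold change of at least 1 in either direction with an adjusted p under 0.05 was reached by 2 members in MDA-MB-231, SAT1 and OAZ1 (3.2% of all genes), 0 in SUM159 (15.7%) and 4 in BT549 (31.3%). Counts and medians over the 10 genes, here and below, include OAZ1, whose values come from minor transcripts and not from its main mRNA.

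**Figure D1:**
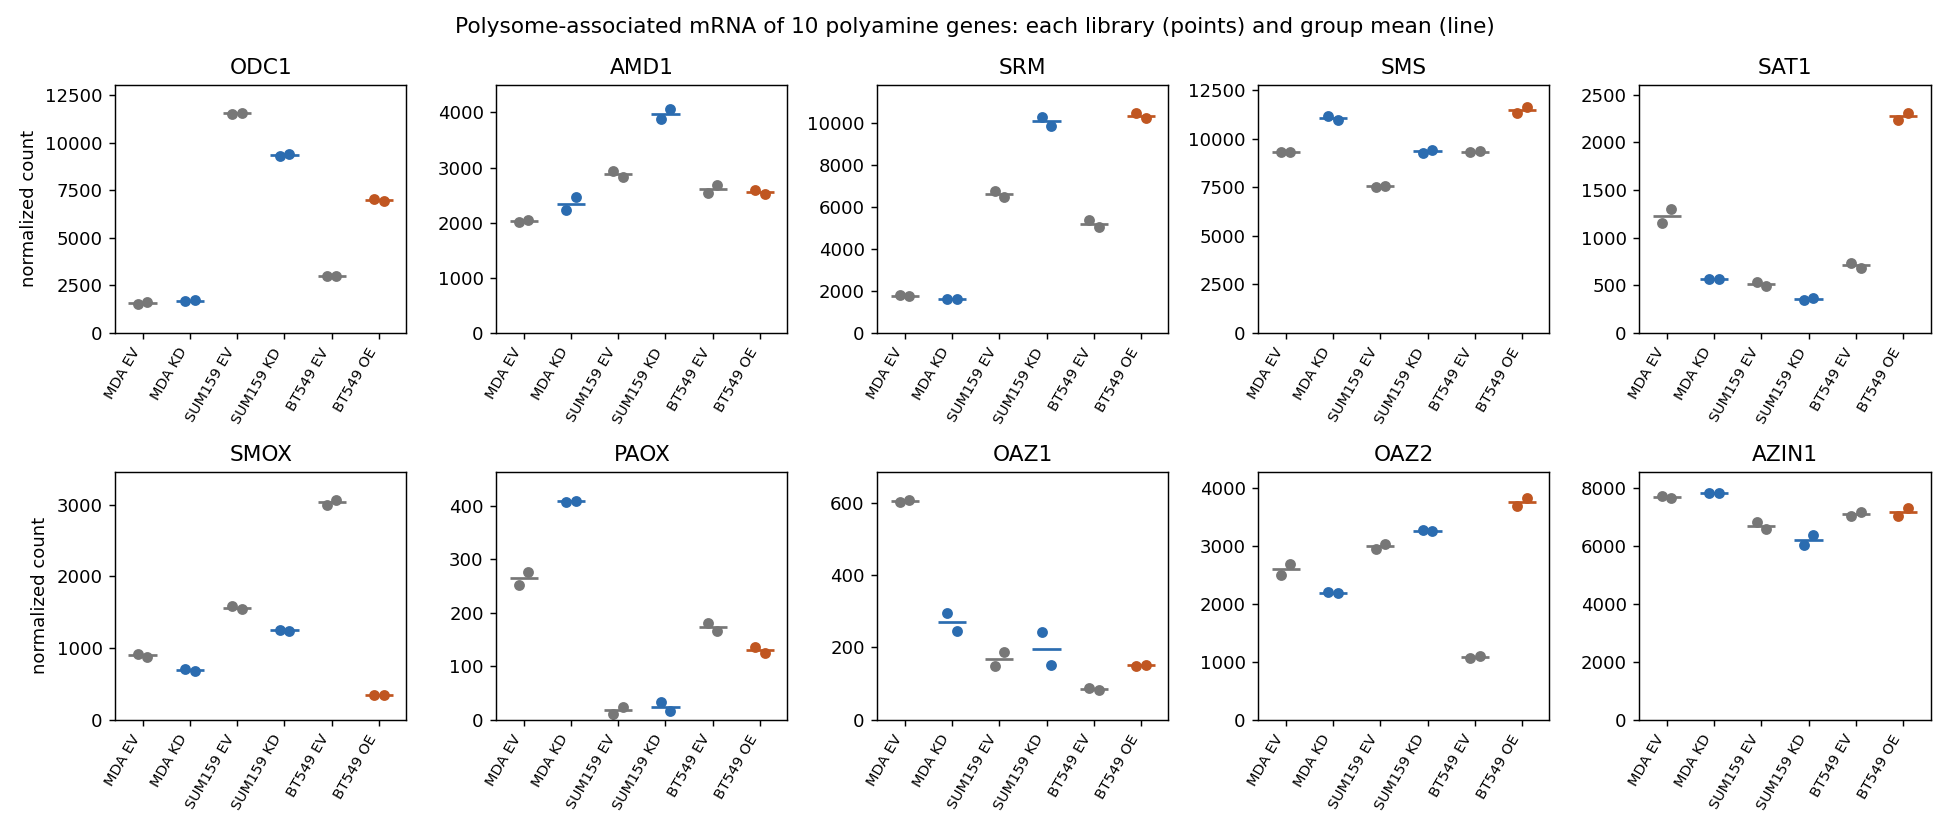
Normalized counts (vertical axes, starting at 0) of the 10 polyamine genes in the 12 polysome libraries. Points are libraries and lines are the means of the 2 libraries of a group, with EV in grey, KD in blue and OE in orange. SMOX falls from about 3000 to 340 in BT549 OE while SAT1, OAZ2, ODC1 and SRM rise there, and ODC1 is highest in SUM159 EV.

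Normalized counts follow the share of an mRNA in the polysome pool, so that a change common to all mRNAs would not appear in them. In such pooled fractions, fewer cells with an mRNA, less of the mRNA per cell and fewer ribosomes on it cannot be told apart, since the study has no libraries of total RNA among those used here. Adjusted p-values below come from edgeR's quasi-likelihood test over all genes tested. Log2 fold changes are given with a standard error (SE) worked back from that test, as the absolute log2 fold change divided by the square root of its F statistic.

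Among the synthesis genes, ODC1 encodes ornithine decarboxylase, the rate-limiting enzyme of the pathway. It lies on chromosome 2 from 10439968 to 10448327 on the minus strand of GRCh38. Its normalized counts were 1542 and 1613 in MDA-MB-231 EV against 1657 and 1707 in KD, 11529 and 11569 in SUM159 EV against 9314 and 9393 in KD, and 3011 and 2989.7 in BT549 EV against 7055 and 6909 in OE. No library of one group reached into another group, and the order from lowest to highest was MDA-MB-231 EV, MDA-MB-231 KD, BT549 EV, BT549 OE, SUM159 KD and SUM159 EV. ODC1 fell in SUM159 KD, by 0.30 on the log2 scale (SE 0.03, adjusted p = 3.67e-09), and rose in BT549 OE, with a log2 fold change of 1.22 (SE 0.03, adjusted p = 1.13e-19), or 2.33-fold. In MDA-MB-231 the log2 fold change of 0.09 (SE 0.04, adjusted p = 0.07) did not pass, although it did with another scaling, RLE size factors (adjusted p = 0.0233), with DESeq2 (0.0277) and without the second EV library (0.0472). Tested as a single transcript, ODC1-201 rose there by 0.51 (adjusted p = 0.0022). Over 13 alternatives the log2 fold change ran from 0.0024 to 0.51 and the adjusted p from 0.0022 to 1.

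SRM encodes spermidine synthase, which adds the first aminopropyl group to putrescine, on chromosome 1 from 11054584 to 11060020. Its normalized counts were 1803 and 1755 in MDA-MB-231 EV against 1619 and 1601 in KD, 6775 and 6479 in SUM159 EV against 10304 and 9861 in KD, and 5364 and 5044 in BT549 EV against 10493 and 10213 in OE. The SUM159 KD and BT549 OE libraries overlapped at the top of this order, and MDA-MB-231 lay below all other groups. SRM rose in SUM159 KD (log2 fold change 0.61, SE 0.03, adjusted p = 3.13e-13) and in BT549 OE (0.99, SE 0.04, adjusted p = 2.18e-17). It fell in MDA-MB-231 KD by 0.14 (SE 0.04, adjusted p = 0.0137), a call that was lost on leaving out the first EV, the first KD or the second KD library, with adjusted p = 0.0952, 0.0547 and 0.0865 and a range of 0.000125 to 0.108 over 13 alternatives.

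ODC1 and SRM had the letters CACGTG, the E-box that MYC and MAX bind, in the promoter windows that RefSeq gives for GRCh38.p14 (250 bases before to 50 after a start). The motif reads the same on both strands. Promoter windows were on hand for 7 of the 10 genes. ODC1 had 2 matches, both in the same one of its 2 windows, SRM had 1, and AMD1, SMS, SAT1, OAZ1 and OAZ2 had 0, while 7.26% of all 35116 windows held at least 1. That share is of windows and not of genes: AMD1 had 3 windows and SRM, SMS, SAT1, OAZ1 and OAZ2 had 1 each. The 30 bases around each match are shown because ODC1 and SRM both rose in BT549 OE, as did SMS, SAT1, OAZ2 and the summed forms of OAZ1, which had no match. In SUM159 KD the pair moved in opposite directions, with log2 fold changes of -0.30 for ODC1 and 0.61 for SRM. Capitals mark the motif, and a match does not show that a factor binds there. Whether MYC or MAX had a part in any of these changes was not tested. The motif began 29 bases before and 5 bases after the ODC1 start and 199 bases before the SRM start, on the minus strand in each case.
ODC1 upstream E-box, chr2:10448024-10448053: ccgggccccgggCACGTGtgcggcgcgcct
ODC1 downstream E-box, chr2:10447990-10448019: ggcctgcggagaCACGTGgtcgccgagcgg
SRM E-box, chr1:11060200-11060229: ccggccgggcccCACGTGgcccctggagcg

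AMD1 encodes adenosylmethionine decarboxylase, which supplies the aminopropyl donor, on chromosome 6 from 110874770 to 110898879. Its main transcript, AMD1-204, carries a short upstream reading frame whose translation is known to stall ribosomes when polyamines are plentiful. The frame is shown because it is known to tie the ribosome load of this mRNA to the products of the pathway. It was the only complete upstream frame in the 321-base leader and began at base 12, and capitals mark its start and stop codons.
AMD1-204 upstream frame, chr6:110874796-110874816, plus strand: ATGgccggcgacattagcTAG

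AMD1 had 2008 and 2045 normalized counts in EV and 2231 and 2464 in KD of MDA-MB-231, 2936 and 2833 in SUM159 EV against 3882 and 4064 in KD, and 2531 and 2685 in BT549 EV against 2600.2 and 2513 in OE. Both KD groups lay above their EV groups without overlap, whereas the BT549 groups overlapped. The rise was 0.46 in SUM159 KD (SE 0.04, adjusted p = 3.58e-09) and 0.21 in MDA-MB-231 KD (SE 0.05, adjusted p = 0.00114), and the second was lost when the second KD library was left out (0.14, adjusted p = 0.0579, range 1.19e-05 to 0.0843 over 13 alternatives). In BT549 OE the log2 fold change was -0.03 (SE 0.05, adjusted p = 0.604).

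SMS encodes spermine synthase, which makes spermine from spermidine, on chromosome X from 21940709 to 21994837. Its normalized counts were 9325 and 9327 in MDA-MB-231 EV against 11179 and 10959 in KD, 7514 and 7554 in SUM159 EV against 9267 and 9425 in KD, and 9318 and 9338 in BT549 EV against 11307 and 11609 in OE. Each altered group was above its own control with no overlap. SMS rose in each comparison, with log2 fold changes of 0.25 in MDA-MB-231 KD (SE 0.03, adjusted p = 1.41e-07), 0.31 in SUM159 KD (SE 0.03, adjusted p = 9.81e-10) and 0.30 in BT549 OE (SE 0.03, adjusted p = 1.25e-09). It was the one member that rose in all 3 comparisons, KD and OE alike, and these calls held under every alternative tried. Of all genes, 21.2%, 28.6% and 35.6% rose in the 3 comparisons, and the share that rose in all 3 was not counted.

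**Figure D2:**
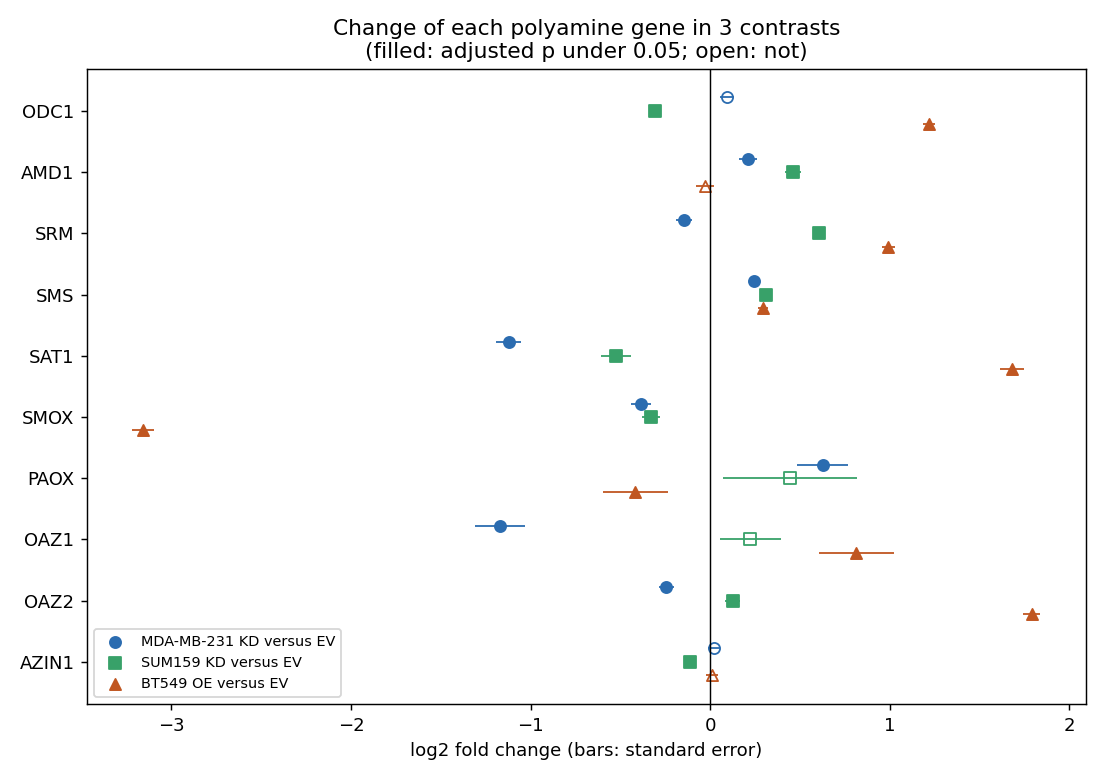
Log2 fold change (horizontal axis, bars are 1 standard error) of the 10 polyamine genes in MDA-MB-231 KD (circles), SUM159 KD (squares) and BT549 OE (triangles), each against EV of the same line. Filled symbols passed an adjusted p of 0.05 and open symbols did not. SMS lies near 0.3 in all 3, SAT1 lies at -1.12 and -0.52 in the KD lines and at 1.68 in BT549 OE, and SMOX lies at -3.16 in BT549 OE.

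Of the catabolic genes, SAT1 encodes spermidine/spermine acetyltransferase, which acetylates polyamines for export or oxidation, on chromosome X from 23783173 to 23786210. Its normalized counts were 1149.6 and 1300.4 in MDA-MB-231 EV against 562 and 564 in KD, 529.9 and 494 in SUM159 EV against 344 and 367 in KD, and 734 and 684 in BT549 EV against 2235 and 2310.3 in OE. The 6 groups did not overlap, and SUM159 KD was lowest and BT549 OE highest. SAT1 fell in both KD lines, by 1.12 in MDA-MB-231 (SE 0.07, adjusted p = 1.19e-11), or 2.18-fold, and by 0.52 in SUM159 (SE 0.08, adjusted p = 8.92e-06). It rose in BT549 OE, with a log2 fold change of 1.68 (SE 0.07, adjusted p = 1.1e-16), or 3.21-fold, and all 3 calls held under every alternative tried.

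SAT1 polysomes held a second form of the mRNA, SAT1-208, which GENCODE 44 lists as a target of nonsense-mediated decay. SAT1 is known to include this extra exon when polyamines are low. The exon spans 110 bases, 23784294 to 23784403 of chromosome X, between the third exon (end at 23783883) and the next exon of the coding form SAT1-204 (23785328 to 23785429). It brings a stop codon after 71 codons in place of 171. The 15 bases on each side of the junction are shown because they differ between the forms, and capitals mark the stop codon that the extra exon adds, at 23784305 to 23784307.
SAT1-204: actggactccggaaggacacagcattgttg
SAT1-208: actggactccggaaggttacagtctcTAGc

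SAT1-208 took 19.4% and 24.3% of SAT1 expected counts in MDA-MB-231 EV against 16.3% and 19.4% in KD, 12% and 13.2% in SUM159 EV against 6.32% and 4.16% in KD, and 4.73% and 4.05% in BT549 EV against 6.22% and 6.82% in OE. The share was lower in KD than in EV of SUM159 and higher in OE than in EV of BT549 without overlap, and in MDA-MB-231 the highest KD share lay just under the lowest EV share. In counts the form went from 238 and 346 to 97.7 and 114 in MDA-MB-231 KD, from 62.9 and 64.7 to 21.5 and 17.6 in SUM159 KD, and from 31.7 and 25 to 125 and 139 in BT549 OE. The coding form SAT1-204 had means of 1008 and 470.2 expected counts in EV and KD of MDA-MB-231, 441 and 354 in SUM159, and 603 and 1856 in EV and OE of BT549. With 2 libraries per group these shares were not tested, and they rest on how the counting divided reads between forms that share most exons.

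SMOX encodes spermine oxidase, which turns spermine back into spermidine, on chromosome 20 from 4120980 to 4187747. It had 921 and 878 normalized counts in EV and 701 and 676 in KD of MDA-MB-231, 1585 and 1540.1 in SUM159 EV against 1254 and 1233 in KD, and 3000.1 and 3066 in BT549 EV against 338 and 342 in OE. BT549 EV was the highest of the 6 groups and BT549 OE the lowest. In BT549 OE it fell by 3.16 on the log2 scale (SE 0.06, adjusted p = 9.66e-23), or 8.93-fold, the largest change of any member in the 3 comparisons. SMOX also fell in MDA-MB-231 KD, by 0.38 (SE 0.06, adjusted p = 9.77e-06), and in SUM159 KD, by 0.33 (SE 0.05, adjusted p = 4.12e-06). When transcripts were tested singly, the main form SMOX-202 fell in BT549 OE but did not pass in the KD lines, with log2 fold changes of -0.31 (adjusted p = 0.0574) and -0.23 (adjusted p = 0.0785), and these p-values were the highest over 13 alternatives.

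PAOX encodes the peroxisomal oxidase of acetylated polyamines, on chromosome 10 from 133379261 to 133391694. Per length it was the least abundant member in every group but BT549 EV, where the summed OAZ1 was lower (5.80 against 6.39 TPM, counts per base of transcript scaled to the same sum in each library). It had 252 and 277 normalized counts in EV and 408 and 409 in KD of MDA-MB-231, 10.1 and 24.1 in SUM159 EV against 32.3 and 15.6 in KD, and 181 and 166 in BT549 EV against 135 and 125 in OE. The KD and EV groups of SUM159 overlapped. PAOX rose in MDA-MB-231 KD (log2 fold change 0.63, SE 0.14, adjusted p = 0.00122), a call that was lost when its most abundant transcript was tested singly (0.67, adjusted p = 0.635, the highest over 13 alternatives). The log2 fold change in SUM159 was 0.44 (SE 0.37, adjusted p = 0.325) and rested on single libraries at these counts. It passed without the second EV library (1.20, adjusted p = 0.0441) and was below 0 without the first EV (-0.05, adjusted p = 0.955) or the first KD library (-0.14, adjusted p = 0.844), with adjusted p from 0.0441 to 0.955 over 13 alternatives. In BT549 OE PAOX fell by 0.42 (SE 0.18, adjusted p = 0.0437), a call that did not hold when any of the 4 BT549 libraries was left out (adjusted p from 0.0555 to 0.163). A read-through gene that overlaps PAOX, ENSG00000254536, had a mean of 22.7 normalized counts, near the PAOX level of SUM159.

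Of the antizymes, OAZ2 was measured through its main coding transcript. Antizyme mRNAs are read with a programmed shift of frame by 1 base, and polyamines raise the share of ribosomes that make this shift. OAZ2 lies on chromosome 15 from 64687573 to 64703281 on the minus strand and OAZ1 on chromosome 19 from 2269509 to 2273490 on the plus strand. The 42 bases around the shift site are shown because the annotation leaves out 1 base there in both genes, and 37 of the 42 were identical between them. Capitals mark the stop codon that ends the first frame, after 68 codons in OAZ1-211 and 32 in OAZ2-201. The base that the annotation skips is the first base of that stop codon, 2271443 of chromosome 19 and 64691515 of chromosome 15.
OAZ1-211, chr19:2271425-2271466, plus strand: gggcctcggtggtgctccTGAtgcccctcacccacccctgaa
OAZ2-201, chr15:64691492-64691533, minus strand: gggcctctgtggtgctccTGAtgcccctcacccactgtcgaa

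OAZ2 had 2502 and 2696 normalized counts in EV and 2206 and 2182 in KD of MDA-MB-231, 2950.1 and 3039 in SUM159 EV against 3271 and 3262 in KD, and 1068 and 1105 in BT549 EV against 3692 and 3829 in OE. No groups overlapped, and BT549 went from the lowest level in EV to the highest in OE. OAZ2 rose in BT549 OE by 1.79 (SE 0.05, adjusted p = 4.54e-20), or 3.46-fold. It fell in MDA-MB-231 KD by 0.24 (SE 0.04, adjusted p = 6.36e-05). The rise of 0.13 in SUM159 KD (SE 0.04, adjusted p = 0.0101) was lost without the first EV library (adjusted p = 0.111, range 0.000335 to 0.297 over 13 alternatives). OAZ2-201 held 83.4% to 86.2% of OAZ2 expected counts in every library.

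The OAZ1 values are not those of its main mRNA. The canonical coding transcript OAZ1-211, of 1148 bases, had at most 0.0131 expected counts in any library, although OAZ1 is a housekeeping gene in most tissues. The annotation writes its shift site in the same way as that of OAZ2-201, which did receive counts, and why OAZ1-211 received none was not tested. The gene's values come from other forms, and which of them led differed between lines. OAZ1-207, listed as a target of nonsense-mediated decay, held a mean of 77.0% and 57.8% of OAZ1 expected counts in EV and KD of MDA-MB-231, 30.5% and 14.9% in SUM159, and 24.3% and 10.6% in EV and OE of BT549. In BT549 the coding form OAZ1-204 held more, with 30.1% and 37.99%, and in SUM159 KD other forms did, among them OAZ1-209, which retains an intron (20.96%), and OAZ1-204 (18.6%). OAZ1-207 held 494 and 514 expected counts in MDA-MB-231 EV, 209 and 125 in KD and at most 60.2 in any library of the other lines. The summed OAZ1 count was 603 and 609 in MDA-MB-231 EV against 294 and 245 in KD, 147 and 186 in SUM159 EV against 243 and 150.5 in KD, and 87.6 and 83.0 in BT549 EV against 148 and 152 in OE. Summed, these forms fell in MDA-MB-231 KD by 1.17 (SE 0.14, adjusted p = 4.27e-07) and rose in BT549 OE by 0.81 (SE 0.21, adjusted p = 0.00139). In SUM159 the groups overlapped and the log2 fold change was 0.22 (SE 0.17, adjusted p = 0.274), but without the second KD library it passed (0.55, adjusted p = 0.00549). OAZ1-207 alone did not pass in MDA-MB-231 KD (-1.57, adjusted p = 0.0518) and had a log2 fold change of -0.36 in BT549 OE, opposite in sign to the sum, so the sum follows a mixture of forms and gives no level of the main OAZ1 mRNA.

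AZIN1 encodes antizyme inhibitor, an inactive relative of ornithine decarboxylase that binds antizyme, on chromosome 8. Of the 10 members it varied least between groups. Its normalized counts were 7729 and 7659.6 in MDA-MB-231 EV against 7809 and 7827 in KD, 6814 and 6573 in SUM159 EV against 6014 and 6380.2 in KD, and 7009 and 7172 in BT549 EV against 7009 and 7299 in OE. The 6 group means spanned 0.34 on the log2 scale, and the BT549 groups overlapped. AZIN1 fell in SUM159 KD by 0.11 (SE 0.03, adjusted p = 0.0066), which was lost with RLE size factors (adjusted p = 0.158) and without the first EV (0.0858) or the first KD library (0.116), with a range of 0.000713 to 0.426 over 13 alternatives. The log2 fold changes were 0.02 in MDA-MB-231 KD (SE 0.03, adjusted p = 0.64) and 0.01 in BT549 OE (SE 0.03, adjusted p = 0.746). Tested as a single transcript, AZIN1-201 rose in BT549 OE (0.30, adjusted p = 0.0275, the lowest over 13 alternatives). The antisense RNA MAILR, which overlaps AZIN1, had a mean of 39.6 normalized counts.

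Because MDA-MB-231 and SUM159 differed in several members, the difference between their KD effects was tested in the same model. It passed for 7 of the 10, where 50.9% of all genes passed. SRM and OAZ2 moved in opposite directions, falling in MDA-MB-231 and rising in SUM159, with differences (SUM159 minus MDA-MB-231) of 0.75 for SRM (SE 0.06, adjusted p = 1.04e-10) and 0.37 for OAZ2 (SE 0.06, adjusted p = 1.06e-05). SAT1 fell less in SUM159, by a difference of 0.60 (SE 0.11, adjusted p = 6.53e-05), and ODC1 was lower there relative to its control than in MDA-MB-231, by -0.40 (SE 0.05, adjusted p = 3.21e-07). The differences for SMS (0.06, SE 0.04, adjusted p = 0.185), SMOX (0.06, SE 0.08, adjusted p = 0.596) and PAOX (-0.18, SE 0.41, adjusted p = 0.772) did not pass, although SMS passed in 5 alternatives with adjusted p from 0.0093 to 0.0451. TRMT112 itself fell by 1.23 in MDA-MB-231 and by 0.76 in SUM159.

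The control cells of the 3 lines also differed in these genes. These comparisons share their EV libraries with those above, and line and culture medium cannot be told apart, since each line was grown in its own medium. The BT549 controls also differed from those of the other lines in vector and selection drug, which cannot be told apart from line either. Between SUM159 and MDA-MB-231 EV all 10 members differed, where 75.7% of all genes did. Between BT549 and MDA-MB-231 9 differed (79.5% of all genes), SMS being the exception, and between BT549 and SUM159 all 10 did (78.4%). Leaving out any 1 library of these groups lost AMD1 or AZIN1 from the last count. AMD1 also did not pass there with RLE size factors (adjusted p = 0.184), DESeq2 (0.226) or transcripts tested singly (0.215). AZIN1 did not pass there without a filter (0.0546) or tested singly, and it reversed to -0.13 with library size only. Between BT549 and MDA-MB-231, AMD1 did not pass with library size only (0.36). PAOX (0.313) and AZIN1 (0.0766) did not pass there when tested singly. Between SUM159 and MDA-MB-231, AZIN1 did not pass when tested singly (0.0864). ODC1 was 2.87 higher on the log2 scale in SUM159 than in MDA-MB-231 (SE 0.03, adjusted p = 1.74e-26) and SRM was 1.90 higher (SE 0.04, adjusted p = 5.44e-22). PAOX was lower in SUM159, with a log2 difference of -3.94 (SE 0.24, adjusted p = 4.03e-13). BT549 EV stood out by its low OAZ2, with -1.26 against MDA-MB-231 (SE 0.05, adjusted p = 2.65e-17), and its high SMOX, with 1.75 (SE 0.05, adjusted p = 9.15e-20). AZIN1 differed by at most 0.20 between lines.

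**Figure D3:**
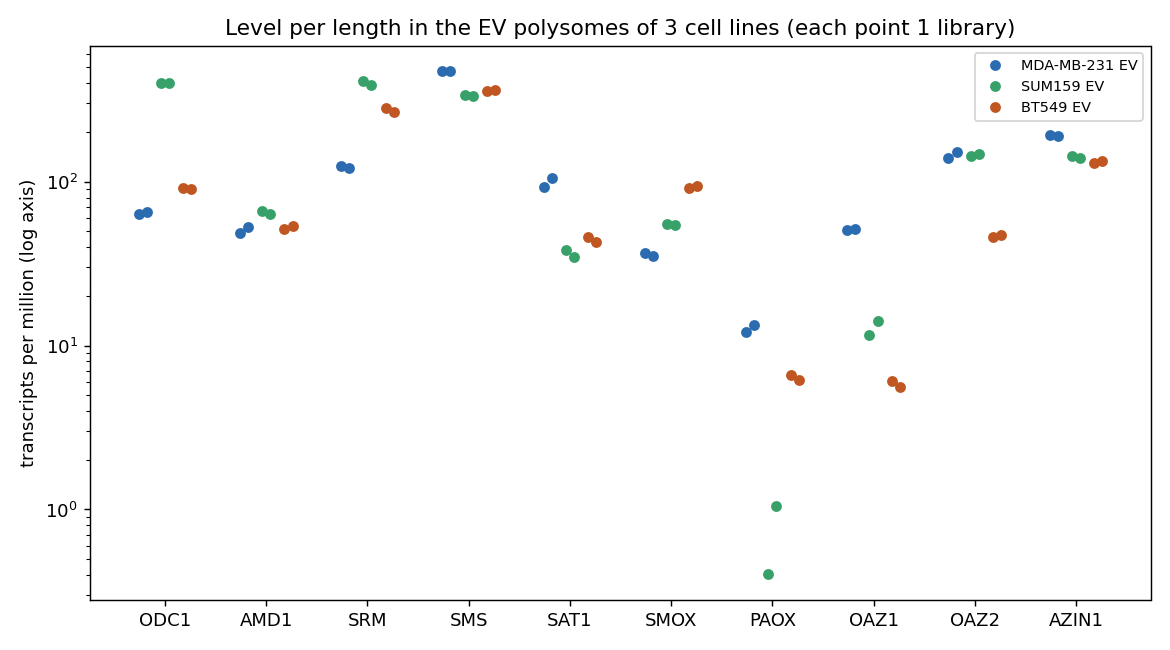
Level per length, in TPM (counts per base of transcript, scaled to the same sum in each library) on a log axis, of the 10 polyamine genes in the EV polysomes of MDA-MB-231 (blue), SUM159 (green) and BT549 (orange), each point 1 library. SMS is highest in MDA-MB-231 and BT549, ODC1 and SRM are highest in SUM159, and PAOX is lowest in SUM159.

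Per length, on the TPM scale, SMS led in MDA-MB-231 EV with 472 ± 0.58 (SD, n = 2), a level that 1.49% of the 24559 symbols exceeded, followed by AZIN1 with 192 ± 1.67, OAZ2 with 146 ± 8.12 and SRM with 123 ± 2.20. In SUM159 EV, ODC1 with 401 ± 0.72 and SRM with 398 ± 16.7 led, and these 2 did not differ beyond their spread. With the length of each gene's most abundant transcript, however, their means were 367 for ODC1 and 414 for SRM. The same change put the mean of SRM above that of OAZ2 in MDA-MB-231 EV, with 128 against 122 TPM. In BT549 EV the order began with SMS at 361 ± 2.92 and SRM at 273 ± 11.1. SMOX went from 92.5 ± 2.31 TPM in BT549 EV to 10.2 ± 0.17 in OE, and SAT1 from 44.3 ± 1.92 to 141 ± 6.20. SMS, SRM and ODC1 were above the catabolic genes SAT1, SMOX and PAOX in each BT549 OE and SUM159 library, but AMD1, the other synthesis gene, was below SAT1 in BT549 OE, with 49.8 against 141 TPM. In BT549 EV, SMOX and ODC1 overlapped (means of 92.5 and 90.9 TPM), but with the length of the most abundant transcript the means were 96.7 and 83.6. SAT1 exceeded ODC1 in MDA-MB-231 EV, with 99.0 ± 8.32 against 64.6 ± 1.61 TPM.

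The make-up of the other mRNAs varied little for SRM, SMS and AMD1 and more for ODC1. SRM-201 held 99.1% to 99.8% of SRM expected counts, SMS-202 96.8% to 99.8% and AMD1-204 80.4% to 90.7%. ODC1 was divided between the coding forms ODC1-201 (36.5% to 57.7%) and ODC1-206 (40.2% to 56.0%). ODC1-206 held 56.0% and 52.4% in MDA-MB-231 EV against 40.2% and 44.4% in KD, while the other 8 libraries lay between 40.4% and 48.7%. AZIN1 was divided between AZIN1-201 (34.7% to 57.4%) and AZIN1-202 (33.7% to 49.0%), and the mean share of AZIN1-201 was 47.3% in BT549 EV and 57.2% in OE. These shares were not tested as such.

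**Figure D4:**
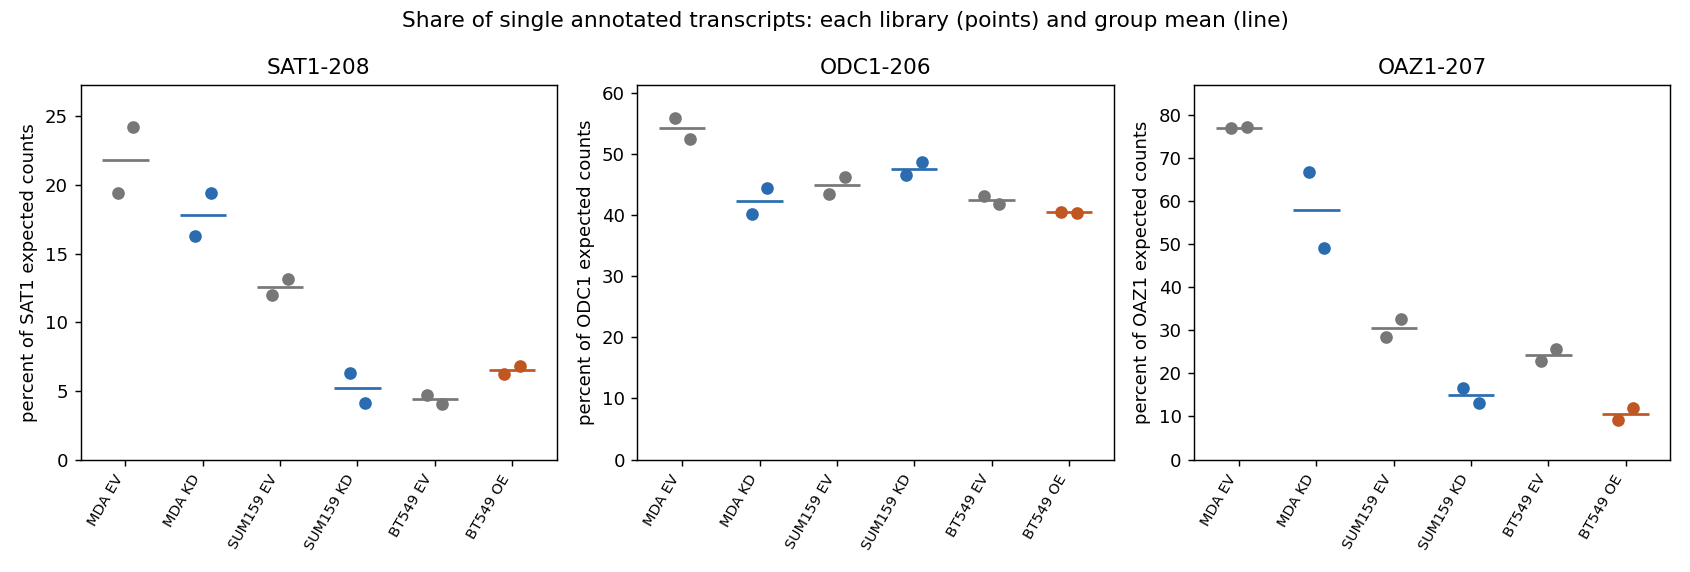
Share, in percent of the gene's expected counts (vertical axes, starting at 0), of SAT1-208, ODC1-206 and OAZ1-207 in each library (points) with the mean of each group (lines), EV in grey, KD in blue and OE in orange. SAT1-208 lies between 16.3% and 24.3% in MDA-MB-231 and at or below 6.82% in BT549, and OAZ1-207 is highest in MDA-MB-231 EV, at 76.9% and 77.0%.

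Genes around the pathway were followed as 5 lists with 31 genes, of which 26 could be tested. In MDA-MB-231 KD 2 were higher and 8 lower (21.2% and 16.5% of all genes), in SUM159 KD 7 and 11 (28.6% and 31.4%), and in BT549 OE 7 and 11 (35.6% and 35%). Among 6 tested genes of ornithine and arginine supply, 4 fell and 0 rose in MDA-MB-231 KD (16.5% of all genes fell), 5 fell and 0 rose in SUM159 KD (31.4%), and 3 rose and 3 fell in BT549 OE (35.6% and 35%). The list medians were -0.24, -0.76 and -0.06, beside 0.00, 0.00 and 0.02 over all genes. SLC7A1, the cationic amino acid transporter, fell in each comparison, with log2 fold changes of -0.24, -0.67 and -1.06. ALDH18A1, which makes the precursor of ornithine, had -0.23 and -0.74 in the KD lines and 0.48 in BT549 OE. ARG2, the mitochondrial arginase, fell in SUM159 KD from a mean of 635 to 225 normalized counts.

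Polyamine transport had 5 tested genes, with 1 higher and 1 lower in MDA-MB-231 KD (21.2% and 16.5% of all genes), 2 and 1 in SUM159 KD (28.6% and 31.4%), and 1 and 3 in BT549 OE (35.6% and 35%). One of those higher in SUM159 KD was ATP13A4, which passed the filter only through that group (a mean of 17.3 normalized counts against 0.50 in EV and at most 0.55 in any other group), so its call is no support for a rise in the list. ATP13A2, the lysosomal polyamine exporter, rose in each, with log2 fold changes of 0.53, 1.09 and 1.19. SLC3A2, the heavy chain of amino acid exchangers that is also linked to polyamine export, fell in each, with -0.39, -1.44 and -0.40. SLC18B1, a vesicular polyamine transporter, fell by 2.69 in BT549 OE.

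The hypusine pathway uses spermidine to modify the translation factor eIF5A. Of its 4 genes, 1 rose and 0 fell in MDA-MB-231 KD, 1 rose and 2 fell in SUM159 KD, and 1 rose and 1 fell in BT549 OE, where 37.7%, 60.1% and 70.6% of all genes changed in either direction. EIF5A had log2 fold changes of 0.10, -0.14 and 1.39, the last from a mean of 46834 to 123126 normalized counts, and its reads can be shared with the near-identical copy EIF5AL1. DHPS, the first enzyme of the modification, fell by 0.72 in SUM159 KD.

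The methionine and methylthioadenosine cycle, which makes the aminopropyl donor and recovers what is left of it, had 8 tested genes. In MDA-MB-231 KD 0 rose and 3 fell (21.2% and 16.5% of all genes), in SUM159 KD 3 and 3 (28.6% and 31.4%), and in BT549 OE 2 and 3 (35.6% and 35%). AHCY, which clears S-adenosylhomocysteine, had -0.24 and -0.69 in the KD lines and 1.03 in BT549 OE, and MTAP, which splits methylthioadenosine, fell by 0.91 in BT549 OE. MTAP was at 0 in both MDA-MB-231 groups and at means of 0.50 and 0.43 normalized counts in EV and KD of SUM159, so that no change could be measured in those lines. Of the related genes OAZ3, AZIN2 and SAT2, 0 passed in MDA-MB-231 KD, while AZIN2 rose by 0.44 in SUM159 KD and fell by 1.53 in BT549 OE.

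For members whose group means spanned at least 1 on the log2 scale, the genes with the most similar pattern were found by Pearson's r of log2 CPM over the 12 libraries among 12589 genes. For ODC1 these were GPM6B (r = 0.998), ATP5PF (0.994) and RPL24 (0.990), and for SRM they included CDH6 (0.998) and NDUFA6 (0.994). SMOX was closest to PARP14 (0.988), BLTP2 (0.975) and PSMB8 (0.973), and OAZ2 to SIPA1L1 (0.989), TTC3 (0.982) and ZNF771 (0.980). SAT1 had lower values, with PGAP1 (0.964), SIK3 (0.964) and SRRT (0.960). The libraries fall into 6 pairs from 3 lines, so these values describe mainly how the groups are ordered.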

How the data were processed

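Polysome RNA of 12 libraries was sequenced, and groups were taken from the sample labels. The authors deposited 1 table of transcripts with Ensembl identifiers, whose values are expected counts, not normalized (3.10% of positive values are whole). Per the methods, the authors trimmed with Trimmomatic, aligned to GRCh38 with HISAT2 and removed duplicates with SAMtools. The counting tool, its annotation and strand setting are not given in the sources used here. The methods name a stranded total RNA kit and the labels a poly(A) kit. In 5.08% of transcripts, the deposited MDA-MB-231 and SUM159 columns hold a missing mark, taken as 0. No transcript of a polyamine gene carried it. The table lists no transcript at 0 in all 4 BT549 libraries. Transcripts with counts only in MDA-MB-231 or SUM159 are therefore not in it. The comparisons between lines and the shares of all genes rest on this set.

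Transcripts were matched to GENCODE 44 without version numbers (79.6% of them, with 99.2% to 99.4% of counts), summed per symbol and rounded. After filterByExpr and TMM scaling, the quasi-likelihood test of edgeR 4.0.16 (R 4.3.3) was run in a single fit with a mean for each of 6 groups (6 residual degrees of freedom), with Benjamini-Hochberg adjustment over 16538 genes and calls at 0.05. The fit was also run on simulated data with 200 changed genes per comparison, as many up as down. Far more genes were called in the real data, so this run does not test the fit at such shares. TPM used the lengths of the annotated transcripts. Tables and figures were made with Python 3.11.15, pandas 2.3.3 and matplotlib 3.10.9. The alternatives tried were DESeq2 1.42.0, scaling by RLE or by library size only, filtering by a mean count of 50 or not at all, lines fitted alone, a replicate block, marked transcripts left out, transcripts tested singly (each gene by its most abundant transcript) and leaving out each library. Named genes are the 10 members, TRMT112, at most 3 genes per neighbouring list and comparison with the smallest p, and the 3 most similar genes of members that span at least 1 on the log2 scale. Some of the genes that this rule gives are left out here. The members and lists were chosen with earlier results of these data known. Nothing says that the libraries of a group came from separate cultures, so p-values measure only the spread between these libraries.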

Additional observations from a re-analysis of the deposited data

Results flagged for a closer look

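For 7 of the 10 polyamine genes the effect of KD differed between SUM159 and MDA-MB-231 by the test of the difference itself (edgeR, adjusted over all genes), where 50.9% of all genes did. As SUM159 minus MDA-MB-231 on the log2 scale, the difference was 1.39 for OAZ1, measured through its minor transcripts only, 0.75 for SRM, 0.60 for SAT1, 0.37 for OAZ2, 0.25 for AMD1, -0.13 for AZIN1 and -0.40 for ODC1. The calls for SRM, SAT1, OAZ2 and ODC1 held under every alternative. The call for AZIN1 (adjusted p = 0.0206) was lost with RLE size factors, library size only, DESeq2, a mean of at least 50 counts, lines fitted alone and transcripts tested singly, and without the first EV or the first KD library of SUM159, with adjusted p between 0.0756 and 0.597 in these. OAZ1 and AMD1 were lost only when transcripts were tested singly.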

How the results depend on the processing

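With 2 libraries per group, small changes of single members depended on the processing, while the calls for SMS, SAT1 and SMOX in the 3 comparisons with EV held at the gene level under every alternative. Replicate numbers did not pair the samples (r of replicate differences from -0.04 to 0.03 over 15 pairs of groups). A replicate block left 11581 genes called in BT549 OE against 11677 and cost 1 call, PAOX there (adjusted p = 0.052, with 0.0218 to 0.193 over 13 alternatives). Scaling by library size only shifted the median of all genes by -0.34 between BT549 EV and MDA-MB-231 EV and by -0.27 between BT549 EV and SUM159 EV. It moved the calls to 2363 higher and 4082 lower in MDA-MB-231 KD (36.7% higher against 56.2%), and to 5099 higher and 8196 lower between BT549 EV and MDA-MB-231 EV (38.4% against 49.1%). Testing transcripts singly changed what is counted. It called 2371 transcripts in MDA-MB-231 KD, 22877 between BT549 EV and MDA-MB-231 EV and 20893 between BT549 EV and SUM159 EV, where 6240, 13152 and 12971 genes were called, and it called 4 members in MDA-MB-231 KD, 5 in SUM159 KD and 4 for the difference of KD effects, against 8, 8 and 7.

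Signs that reversed belonged to values that were small in the main fit, to PAOX and OAZ1, and to single transcripts of AZIN1. With library size only these were AZIN1 in MDA-MB-231 KD (-0.067), SMS between BT549 EV and MDA-MB-231 EV (-0.31) and AZIN1 between BT549 EV and SUM159 EV (-0.13). That SMS difference passed edgeR's test with this scaling (adjusted p = 2.51e-10) but not in the main fit. That AZIN1 difference passed in both directions, with 0.08 in the main fit (adjusted p = 0.0281) and -0.13 with this scaling (adjusted p = 0.00155). SMS between BT549 EV and MDA-MB-231 EV was also -0.0036 without a filter, -0.041 with a mean of at least 50 counts and -0.0064 with lines fitted alone, as was AZIN1 in BT549 OE (-0.0018). With transcripts tested singly they were PAOX (-1.02) and OAZ1 (-0.77) in SUM159 KD, OAZ1 in BT549 OE (-0.36), AZIN1 in SUM159 EV against MDA-MB-231 EV (0.21), SMS (-0.076) and AZIN1 (0.21) in BT549 EV against MDA-MB-231 EV, and AZIN1 in BT549 EV against SUM159 EV (-0.0026). The cause was not tested.

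Leaving out 1 library leaves 1 in its group, whose spread is taken from the other groups. SUM159 KD then ran from -0.14 to 1.20 for PAOX and from -0.15 to 0.55 for OAZ1, the difference of KD effects from -0.76 to 0.57 for PAOX, BT549 OE from -0.021 to 0.038 for AZIN1 and from -0.076 to 0.0073 for AMD1, and SMS between BT549 EV and MDA-MB-231 EV from -0.00098 to 0.0051. Levels per length changed by 0.831 to 1.07 times with the length of the main transcript, which changed the order of some members that lay close together.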
